A study of Mus musculus with 27 samples.

Results

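The 10 genes Ezh2, Eed, Suz12, Jarid2, Dnmt1, Dnmt3a, Dnmt3b, Uhrf1, Tet2 and Kdm6b, which write, read or remove Polycomb marks and DNA methylation, were followed in CD8 T cells with little, normal or extra let-7. They were taken by symbol from 35275 genes in the deposited tables, and the list was put together with earlier results of these data in view. Jarid2 was chosen by its FPKM values in these libraries, because its difference between genotypes turns sign between stages, so its genotype differences are given as a description without a test, and counts of genotype differences are over the 9 other members. RNA was sequenced from P14 CD8 T cells, whose transgenic receptor recognizes gp33 of LCMV, of WT, lin28Tg (Lin28bTg in the labels) and let-7Tg mice. The P14 transgenic mice lacked Rag2, so that T cells with other receptors were not expected. Each genotype was sampled as naive cells, as cells activated for 12 h, and as cytotoxic T lymphocytes (CTLs) on day 5, with 3 libraries per group and 27 in all. The paper describes the 3 libraries of a group as biological replicates. The labels do not say whether they came from separate mice or cultures, so p-values measure only the spread between these libraries. The labels name lymph nodes as the source and the protocol lymph nodes and spleens. The study used young adult mice of both sexes.

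Lin28 protein keeps let-7 precursors from maturing, so that lin28Tg cells lack let-7. The promoter that drives the Lin28 transgene is not given in the sources used here. In let-7Tg mice a doxycycline-inducible let-7g sits in the Col1a1 locus, and unless stated otherwise all mice, WT included, drank doxycycline before the experiment. Cells were activated for 12 h with anti-CD3 at 2 μg/ml and anti-CD28 at 5 μg/ml. CTLs were made with irradiated splenocytes and anti-CD3 at 2 μg/ml, with IL-2 at 100 U/ml added later. Doxycycline at 2 μg/ml was in the medium of every genotype at 12 h and day 5. No culture treatment is listed for the naive cells, whose donor mice drank doxycycline as above unless stated otherwise. The paper presents the CTL libraries apart from the naive and 12 h libraries, and the labels name no sequencing run. CTLs also had another stimulus, so time, stimulus and any difference of sequencing run cannot be told apart between stages.

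Polycomb repressive complex 2 (PRC2) places methyl groups on lysine 27 of histone H3 and keeps genes silent through cell division. Ezh2 is its catalytic subunit, Eed and Suz12 are the core partners that hold the enzyme active and bind the mark, and Jarid2 is an accessory subunit that directs the complex to its targets. Dnmt1 copies DNA methylation to the new strand after replication, Uhrf1 binds hemimethylated DNA and recruits Dnmt1, and Dnmt3a and Dnmt3b set methylation anew. Tet2 oxidizes methylcytosine, and Kdm6b removes methyl groups from lysine 27 of histone H3. In CD8 T cells PRC2 and Dnmt3a are known for silencing memory-associated genes as effector cells form.

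The miRNA that distinguishes the genotypes is shown with the only match to its seed among the members. The mature let-7g is at chr9:106178846-106178867 on the plus strand (GRCm38.p6, sequence from RefSeq), and capitals mark the seed, bases 2 to 8. The site lies at base 7 of the 402-base 3′ UTR of Ezh2, on the minus strand at chr6:47530528-47530534 (GRCm38, GENCODE M21), and capitals mark the bases that pair with the seed.
let-7g-5p: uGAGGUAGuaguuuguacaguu
Ezh2 3′ UTR: catctaCTACCTCttccccttctct
The letters CTACCTC were in the 3′ UTR of 1 of 10 members, against 8.85% of 20981 genes with a 3′ UTR, taking 1 transcript per gene. The other 9 members held no such match in the transcript searched. A match is a description of the sequence and no evidence of binding.

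The windows from 250 bases before to 50 bases after the annotated starts were searched for E2F-type motifs, because E2F factors drive genes of DNA replication. The letters searched were TTTGGCGC, TTTCCCGC, TTTCGCGC and TTTGCCGC on both strands, and TTTCGCGC and its reverse complement can overlap. Of 9 members with a window in the RefSeq table, 4 held a motif, against 2.6% of 27025 genes. Some genes have several annotated starts, and a motif in any window counted. By window it was 4 of the members' 15, against 2.26% of 32851 windows. Capitals mark the motif, positions are GRCm38.p6, and each stretch is written on the strand of its gene.
Ezh2, chr6:47595010-47595037, motif 3 bases after the start: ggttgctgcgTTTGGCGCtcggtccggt
Suz12, chr11:79992877-79992904, motif 219 bases before the start: gacccctcatTTTCCCGCgaattcagtt
Dnmt1, chr9:20952825-20952852, motif 219 bases before the start: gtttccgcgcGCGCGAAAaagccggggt
Dnmt1, chr9:20952574-20952600, motif 33 bases after the same start: cggggcagcgTTTGGCGCgggctgtgc
Uhrf1, chr17:56304118-56304145, motif 185 bases before the start: ccgagtcgggTTTCGCGCgcccaggcgt
A match is a description of the letters and no evidence that a factor binds. Eed, Jarid2, Dnmt3a, Dnmt3b and Tet2 held none of these letters in their windows, and Kdm6b had no window in the table.

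The libraries held 13862706 to 23591069 counted reads, and each member was covered by 184 to 16385 reads per library. Levels are FPKM, read fragments scaled by gene length and by library total, which can be compared between genes. Differences are on the log2 scale of scaled FPKM plus 0.5, which understates changes of low genes, with the SE of the fit, and were tested with limma and Benjamini-Hochberg adjustment over all genes. The labels held, since Lin28b was 9.94 to 67.9 FPKM in the 9 lin28Tg libraries and at most 0.06 in the others, and Col1a1 was 9.06 to 62.8 in let-7Tg libraries and at most 4.93 in the others. Markers of other cells differed between the naive genotypes, some higher and some lower in lin28Tg cells. The summed level of 4 myeloid markers (Lyz2, Csf1r, Itgam and Cd68) was 129 to 647 FPKM there and 20.9 to 50.4 in the other naive libraries, that of 3 erythroid markers 339 to 1345 against 0.901 to 196, and Cd4 9.71 to 56.4 against 3.13 to 9.62. The sum of 2 NK cell markers was 17.8 to 60.4 against 6.53 to 17.6. The 3 genes listed as stromal markers, Col1a2, Pdgfrb and Pecam1, went the other way, with 39.3 to 41.5 against 63.0 to 75.6. The sums of 3 B cell markers overlapped, with 1.17 to 1.88 against 1.35 to 2.35. None of these markers was at 0 in all libraries of a naive group. The 5 CD8 T cell markers summed to 2515 to 2755 FPKM in naive lin28Tg cells and to 3340 to 3906 in the other naive libraries. In such bulk RNA, fewer cells of a type and less RNA per cell cannot be told apart. Sex-linked RNA differed within groups. Naive library 1 of WT and let-7Tg had Xist at 0.0103 to 0.0508 FPKM and libraries 2 and 3 at 154 to 205.0, all 3 naive lin28Tg libraries and lin28Tg library 3 at 12 h held both Xist and Ddx3y, and on day 5 library 1 of each genotype had Xist at 383 to 476 and the other libraries at 0.119 to 0.441.

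In naive cells the maintenance methylation pair Uhrf1 and Dnmt1 and the PRC2 subunits Ezh2 and Suz12 were higher in lin28Tg cells than in WT. Uhrf1 stood at 11.0, 10.1 and 11.1 FPKM in WT, at 50.4, 56.9 and 70.9 in lin28Tg and at 7.53, 5.81 and 6.85 in let-7Tg cells. The 3 genotypes did not overlap, with every lin28Tg library above and every let-7Tg library below WT. The difference from WT was 2.35 ± 0.12 (SE, n = 3 per group, adjusted p = 6.79e-06 with limma) in lin28Tg cells. In let-7Tg cells it was -0.68 ± 0.12 (adjusted p = 0.0462), a call that was lost when any of the 6 libraries compared was left out and with replicate number as a block (adjusted p = 0.0591). Between lin28Tg and let-7Tg cells the mean level of Uhrf1 differed 8.83-fold, 3.03 ± 0.12 on the log2 scale (adjusted p = 1.26e-06).

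Ezh2 was 17.5, 20.2 and 20.9 FPKM in naive WT, 33.2, 36.0 and 47.0 in lin28Tg and 18.0, 22.7 and 20.0 in let-7Tg cells. The lin28Tg libraries lay above all others, whereas WT and let-7Tg overlapped. Its difference in lin28Tg cells was 0.91 ± 0.13 from WT (adjusted p = 0.00103) and 0.90 ± 0.13 from let-7Tg (adjusted p = 0.000615). Dnmt1 was 49.2 to 51.3 in WT, 61.8 to 71.6 in lin28Tg and 48.6 to 53.4 in let-7Tg cells, and its difference from WT in lin28Tg cells was 0.33 ± 0.06 (adjusted p = 0.00467). Suz12 was 45.6 to 49.7, 57.1 to 63.5 and 45.3 to 53.3 in the same order, with a difference from WT of 0.27 ± 0.07 in lin28Tg cells (adjusted p = 0.0157). That call was lost without WT library 3 (adjusted p = 0.0593) or lin28Tg library 3 (adjusted p = 0.0703).

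Kdm6b, the H3K27 demethylase, went the other way in naive cells. It was 38.1, 55.3 and 62.2 FPKM in WT, 38.3, 38.3 and 37.9 in lin28Tg and 54.0, 61.7 and 65.9 in let-7Tg cells. WT library 1, the library with Ddx3y and without Xist, lay between the lowest and the highest lin28Tg library, so these groups overlapped. The difference from WT in lin28Tg cells was -0.46 ± 0.15 (adjusted p = 0.043), and it missed the threshold with 5 of the 6 libraries compared left out in turn and under 4 other settings. Against let-7Tg cells, where no libraries overlapped, it was -0.67 ± 0.15 (adjusted p = 0.00624) and stayed below the threshold without any 1 library. The part of sex or of cells other than T cells in these differences was not tested.

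In all, 5 of the 9 members differed between lin28Tg and WT naive cells, 4 higher and 1 lower, where 33.9% of 13251 tested genes were called. Of the same 9, 1 differed between let-7Tg and WT (background 0.74%) and 5 between lin28Tg and let-7Tg (background 44.2%). The median difference of the 9 members was 0.29 in lin28Tg against WT, beside -0.03 over all genes. Dnmt3a and Dnmt3b had differences of 0.29 ± 0.10 and 0.31 ± 0.11 from WT in lin28Tg cells and missed the threshold (adjusted p = 0.0548 and 0.0614 with limma). Their libraries did not overlap those of WT, as was so for 49% of all tested genes, and between the other pairs of genotypes and stages that share was 17.1% to 54.1%. Eed and Tet2 differed from WT by 0.08 ± 0.07 and -0.17 ± 0.13. Jarid2 was alike in the 3 genotypes, at 44.5, 47.2 and 50.8 FPKM in WT, 46.1, 45.1 and 48.3 in lin28Tg and 47.1, 45.2 and 56.3 in let-7Tg cells.

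**Figure D1:**
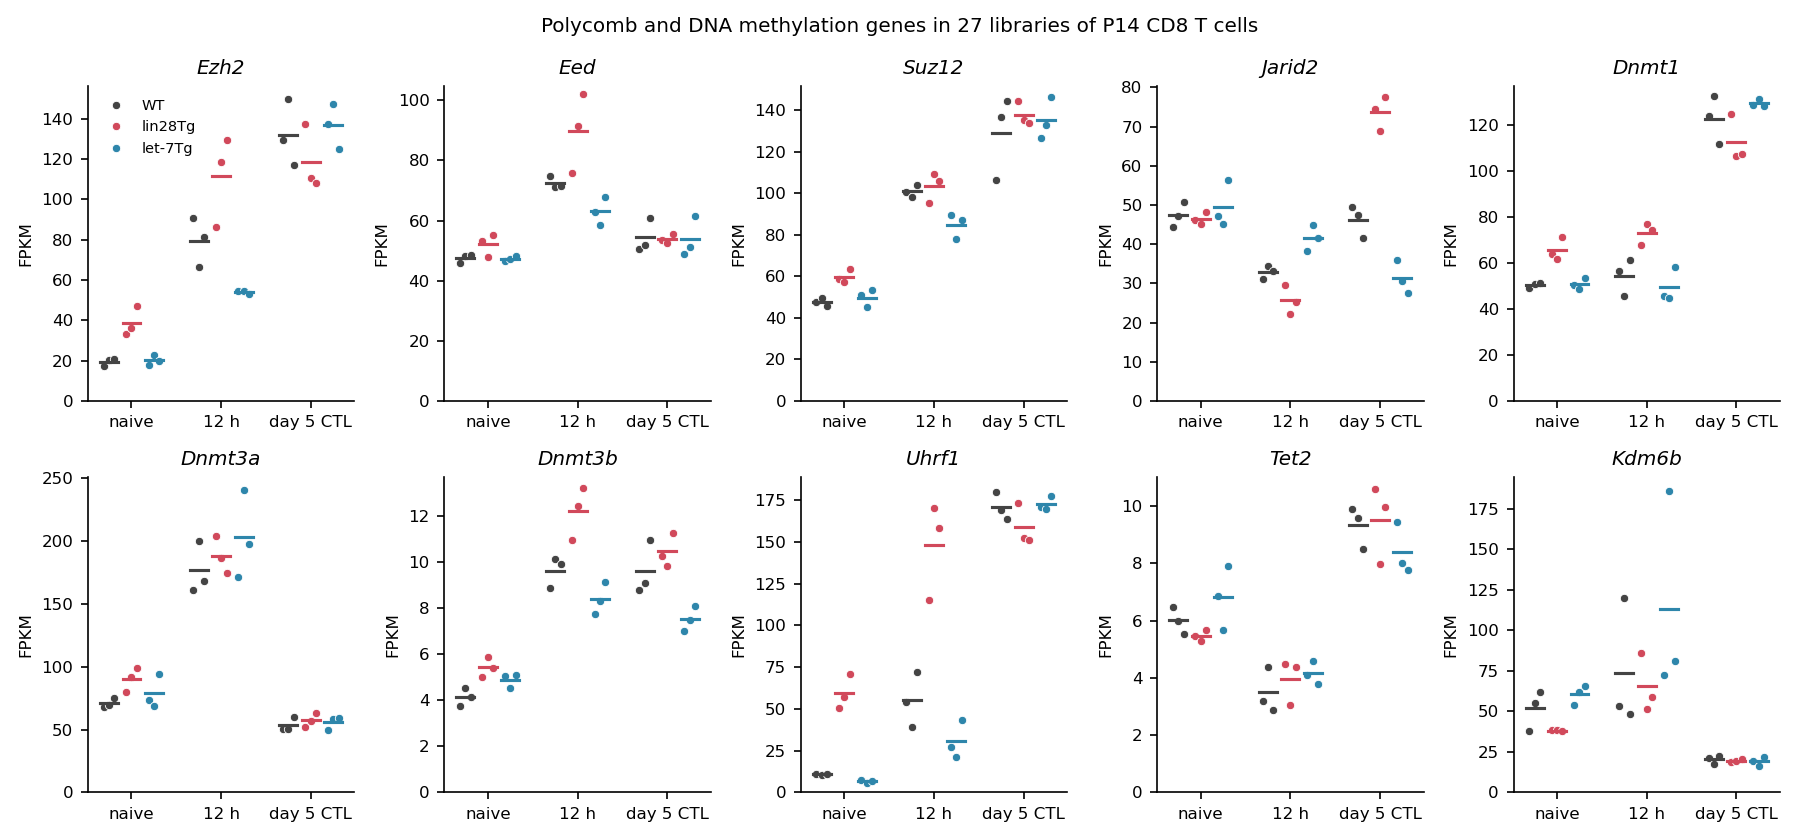
FPKM of the 10 members (vertical axes from 0) in naive, 12 h activated and day 5 CTL libraries, with a point per library and a line at the mean of each group of 3, WT in grey, lin28Tg in red and let-7Tg in blue. Uhrf1 fans out by genotype in naive and 12 h activated cells and comes together on day 5, whereas Jarid2 is alike in naive cells, lowest in lin28Tg cells at 12 h and highest in lin28Tg CTLs.

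After 12 h of activation 6 members differed between lin28Tg and let-7Tg cells, and of these Uhrf1 alone was also called against WT. Uhrf1 was 54.1, 39.3 and 71.8 FPKM in WT, 115, 170.1 and 158 in lin28Tg and 27.4, 21.3 and 43.0 in let-7Tg cells. All lin28Tg libraries were above all others, and let-7Tg library 3 overlapped WT library 2. The difference of lin28Tg from WT was 1.42 ± 0.30 (adjusted p = 0.0203 with limma). It kept its sign but missed the threshold without WT library 1 or 2 or lin28Tg library 2 or 3 (adjusted p 0.054 to 0.0895). Of the 9 members, 1 was called in this comparison (background 8.33%), 0 in let-7Tg against WT (background 2.97%) and 6 in lin28Tg against let-7Tg, all 6 higher in lin28Tg cells (background 30.1%). In let-7Tg against WT, 3 of the 9 had an unadjusted p under 0.05. The share of all genes at that threshold is not given here, so this count has no background.

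The 6 genes higher in lin28Tg than in let-7Tg cells at 12 h were the 3 core subunits of PRC2, the maintenance pair and Dnmt3b. Ezh2 was 86.4, 119 and 129.6 FPKM in lin28Tg, 90.7, 66.6 and 81.5 in WT and 54.7, 54.3 and 53.2 in let-7Tg cells. Every let-7Tg library was below every WT library and lin28Tg overlapped WT, with a difference between the transgenics of 1.04 ± 0.16 (adjusted p = 0.00157). Eed was 75.9 to 102 in lin28Tg, 71.3 to 74.8 in WT and 58.4 to 67.9 in let-7Tg cells, so that WT lay between them without overlap, and lin28Tg and let-7Tg differed by 0.52 ± 0.12 (adjusted p = 0.0113). Dnmt3b, at 11.0, 12.4 and 13.2 in lin28Tg, 8.85, 10.1 and 9.89 in WT and 7.73, 8.31 and 9.11 in let-7Tg cells, was the lowest of the 6, and differed by 0.53 ± 0.11 (adjusted p = 0.00754).

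Dnmt1 differed by 0.58 ± 0.15 (adjusted p = 0.0168), Suz12 by 0.31 ± 0.10 (adjusted p = 0.0379) and Uhrf1 by 2.32 ± 0.30 (adjusted p = 0.000628) between lin28Tg and let-7Tg cells at 12 h. The calls of Suz12 and Dnmt1 depended on single libraries. Suz12 missed the threshold without lin28Tg library 2 or 3 or let-7Tg library 2 (adjusted p 0.0742 to 0.14), and Dnmt1 without lin28Tg library 2 or 3 (adjusted p = 0.066 and 0.0561). Dnmt3a, the member with the highest group mean in each genotype at this stage and 161 to 241 FPKM in the 9 libraries, differed by -0.07 ± 0.11 between the transgenics. Kdm6b was 53.5, 119.9 and 48.5 in WT, 86.3, 51.5 and 58.7 in lin28Tg and 72.5, 186 and 81.0 in let-7Tg cells. Library 2 of WT and of let-7Tg stood apart from their groups in Kdm6b, and none of its 3 differences at 12 h passed the test. Cell type markers also differed by genotype at 12 h. The erythroid markers summed to 56.9 to 492 FPKM in lin28Tg, 18.4 to 76.1 in WT and 0.337 to 3.59 in let-7Tg cells, and the CD8 T cell markers to 1203 to 1454 in lin28Tg and 1548 to 2046 in the other libraries. Their part in the members' differences was not tested.

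Jarid2 ran against the core subunits at 12 h. Its level was 31.2, 34.4 and 33.3 FPKM in WT, 29.7, 22.0 and 25.2 in lin28Tg and 38.3, 44.9 and 41.6 in let-7Tg cells. The genotypes did not overlap, with lin28Tg lowest and let-7Tg highest. The differences were -0.39 ± 0.10 for lin28Tg and 0.29 ± 0.10 for let-7Tg against WT, and -0.67 ± 0.10 between the transgenics.

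In day 5 CTLs Jarid2 stood in the opposite order and 1 of the 9 other members was called. Jarid2 was 49.5, 47.5 and 41.5 FPKM in WT, 74.5, 68.8 and 77.6 in lin28Tg and 35.9, 30.6 and 27.4 in let-7Tg CTLs. Again no genotypes overlapped, now with lin28Tg highest and let-7Tg lowest. The differences were 0.74 ± 0.10 for lin28Tg and -0.60 ± 0.10 for let-7Tg against WT, and 1.34 ± 0.10 between the transgenics, a 2.35-fold difference in mean level. The markers of NK cells Ncr1 and Klrb1c summed to 8.35 to 40.6 FPKM in WT, 60.8 to 158 in lin28Tg and 2.15 to 4.63 in let-7Tg CTLs, the same order as Jarid2. Ncr1 was at 0 in all 3 WT CTL libraries, so the WT sum was that of Klrb1c alone. The sum of the genes listed as stromal markers, Col1a2, Pdgfrb and Pecam1, had the reverse order, with 12.9 to 18.8, 3.05 to 7.42 and 20.0 to 34.6. Which cells made this RNA, and the part of either sum in the Jarid2 values, were not tested. Ezh2 was 129.6, 149.7 and 117 in WT, 137, 111 and 108 in lin28Tg and 137, 147 and 125 in let-7Tg CTLs, with overlap between every pair of genotypes.

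Of the 9 other members, 0 differed between lin28Tg and WT CTLs (background 4.18%), 0 between let-7Tg and WT (background 0.945%) and 1 between lin28Tg and let-7Tg (background 21.3%), with limma. Before adjustment, 0, 1 and 1 of them had p under 0.05, counts without a share of all genes at that threshold. The gene called was Dnmt3b, at 10.3, 9.83 and 11.3 FPKM in lin28Tg, 8.77, 9.10 and 10.9 in WT and 7.01, 7.47 and 8.10 in let-7Tg CTLs. Its let-7Tg libraries were below all others, and lin28Tg and let-7Tg differed by 0.56 ± 0.14 (adjusted p = 0.0212). Without lin28Tg library 3, let-7Tg library 1 or let-7Tg library 2 the adjusted p was 0.0737 to 0.0765. Uhrf1 lay between 151 and 179.8 FPKM in all 9 CTL libraries and differed by -0.01 ± 0.07 between the transgenics.

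**Figure D2:**
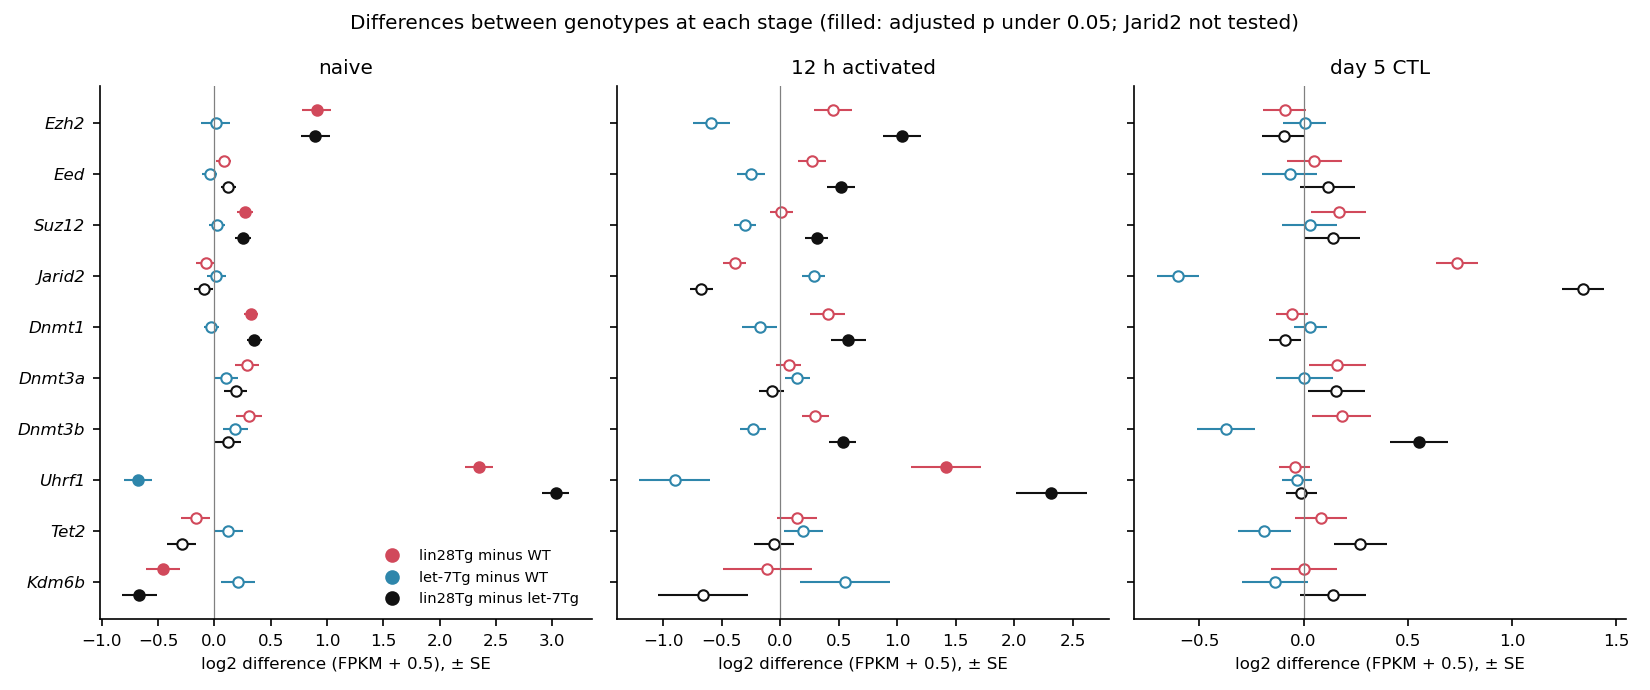
Log2 difference of scaled FPKM plus 0.5 between genotypes for each member at the 3 stages, with bars of ± 1 SE, lin28Tg minus WT in red, let-7Tg minus WT in blue and lin28Tg minus let-7Tg in black, and filled points for adjusted p under 0.05. Uhrf1 has the largest black value in naive cells (3.03) and lies near 0 on day 5 (-0.01), while Jarid2, drawn open because it was not tested, goes from -0.67 at 12 h to 1.34 on day 5.

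The change of the lin28Tg to let-7Tg difference between stages was tested directly for the 9 members in the fit of all libraries. From naive cells to 12 h it was called in 0 of 9 (background 13.3%). At an unadjusted p under 0.05 there were 3, a count without a share of all genes at that threshold. From 12 h to day 5 it was called in 3 of 9 (background 20%). The difference fell by 2.36 on the log2 scale for Uhrf1 (SE 0.31, adjusted p = 7.64e-06 with limma), by 1.17 for Ezh2 (SE 0.21, adjusted p = 0.000277) and by 0.70 for Dnmt1 (SE 0.16, adjusted p = 0.00254). Eed moved by -0.44 ± 0.16 and missed the threshold (adjusted p = 0.0654), but was called, as a member beyond these 3, with replicate number as a block, without scaling and with median-of-ratios scaling. Dnmt3b, with -0.01 ± 0.17, was not called.

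In WT cells all 10 members changed within 12 h of activation. All differed from naive cells, 8 higher and 2 lower, where 71% of 14446 tested genes were called. The counts in WT cells include Jarid2, which was chosen by FPKM values that include these libraries. Its p-values between WT stages are therefore no independent evidence. Ezh2 rose from 17.5 to 20.9 FPKM in naive to 66.6 to 90.7 in 12 h libraries, 2.26 ± 0.15 (adjusted p = 6.1e-12). Uhrf1 rose by 2.53 ± 0.22 (adjusted p = 5.89e-10), Dnmt3a by 1.58 ± 0.12 (adjusted p = 1.29e-10), Dnmt3b by 1.38 ± 0.12 (adjusted p = 6.7e-10), Suz12 by 1.35 ± 0.11 (adjusted p = 2.41e-10) and Eed by 0.88 ± 0.12 (adjusted p = 5.67e-07). Tet2 fell by 0.48 (SE 0.14, adjusted p = 0.00393) and Jarid2 by 0.25 (SE 0.09, adjusted p = 0.0223), a call that was lost without WT naive library 3 (adjusted p = 0.106). The rise of Dnmt1, 0.37 ± 0.11 (adjusted p = 0.00573), was not called without scaling between libraries (0.10, adjusted p = 0.416), which moved the median of all genes from -0.01 to -0.18. Kdm6b rose by 0.69 ± 0.29 (adjusted p = 0.0369), and by 0.29 without WT library 2 at 12 h (adjusted p = 0.337).

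From 12 h to day 5 in WT cells, 8 of 10 members were called, 5 higher and 3 lower (background 67.5%). Dnmt3a fell from 161 to 200.2 FPKM in 12 h libraries to 50.2 to 59.8 in CTLs, a difference of -1.87 ± 0.12 (adjusted p = 1.3e-11). Kdm6b, with all CTL libraries of all genotypes between 16.1 and 22.4, fell by 1.88 in WT (SE 0.29, adjusted p = 4.69e-06), and Eed fell by 0.57 (SE 0.12, adjusted p = 0.00016). Uhrf1 rose by 1.51 ± 0.22, Tet2 by 1.17 ± 0.14, Dnmt1 by 1.02 ± 0.11, Ezh2 by 0.57 ± 0.15 and Jarid2 by 0.32 ± 0.09 (adjusted p between 1.21e-07 and 0.00497, the latter for Jarid2). Suz12 and Dnmt3b did not pass the test, with 0.18 ± 0.11 and -0.16 ± 0.12. Of the writers of new methylation, Dnmt3a was then below its 67.9 to 75.1 FPKM of naive cells, while Dnmt3b, at 8.77 to 10.9 FPKM, was above its 3.73 to 4.53.

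Against naive WT cells, 9 of 10 members were called in CTLs, 7 higher and 2 lower (background 65.1%). The largest difference was that of Uhrf1, 4.04 ± 0.22 (adjusted p = 3.86e-13), followed by Ezh2 with 2.83 ± 0.15 (adjusted p = 2.01e-13). Dnmt3a and Kdm6b were lower by 0.29 and 1.19, with adjusted p of 0.0436 and 0.000929, and the call of Dnmt3a was lost without WT naive library 2 or 3 or CTL library 1 or 2 (adjusted p 0.0735 to 0.151). Jarid2 differed by 0.07 ± 0.09 (adjusted p = 0.539).

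Proliferation genes moved with some members and not with others. The summed level of 20 genes of DNA replication and mitosis was 423 to 455 FPKM in naive WT, 1005 to 1238 in naive lin28Tg and 373 to 396 in naive let-7Tg libraries. At 12 h it was 1198 to 1709, 1926 to 2402 and 912 to 1474, and on day 5 it was 3582 to 3929, 3289 to 3749 and 4066 to 4304, in the same order. The sums are of unscaled FPKM. Of these 20 genes, 19 were called higher in lin28Tg than in WT naive cells (background 33.9%) and 13 at 12 h (background 8.33%). Between the transgenics all 20 were called higher in lin28Tg cells, both naive (background 44.2%) and at 12 h (background 30.1%). On day 5, 0 were called in lin28Tg or in let-7Tg against WT (background 4.18% and 0.945%). Between the transgenics on day 5, 3 were called, all lower in lin28Tg CTLs (background 21.3%). The change of that difference from 12 h to day 5 was called in 19 of the 20, all lower (background 20%). Among naive and among 12 h cells the lin28Tg libraries had the highest sums and the highest Uhrf1 and Dnmt1. On day 5 Uhrf1 and Ezh2 overlapped between genotypes. Unscaled Dnmt1 was 107 to 125 FPKM in lin28Tg and 129 to 132 in let-7Tg CTLs, a difference that was not called. In that comparison the libraries did not overlap for 42.4% of all tested genes. At 12 h Jarid2 was lowest in the lin28Tg libraries, which had the highest sums, and on day 5 it was highest in lin28Tg CTLs, which had sums of 3289 to 3749, and lowest in let-7Tg CTLs, with 4066 to 4304. In WT cells Dnmt3a, Kdm6b and Eed fell from 12 h to day 5 and Tet2 and Jarid2 fell from the naive state to 12 h, while the sum was higher at each later stage. The part of proliferation in the members' differences was not tested.

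**Figure D3:**
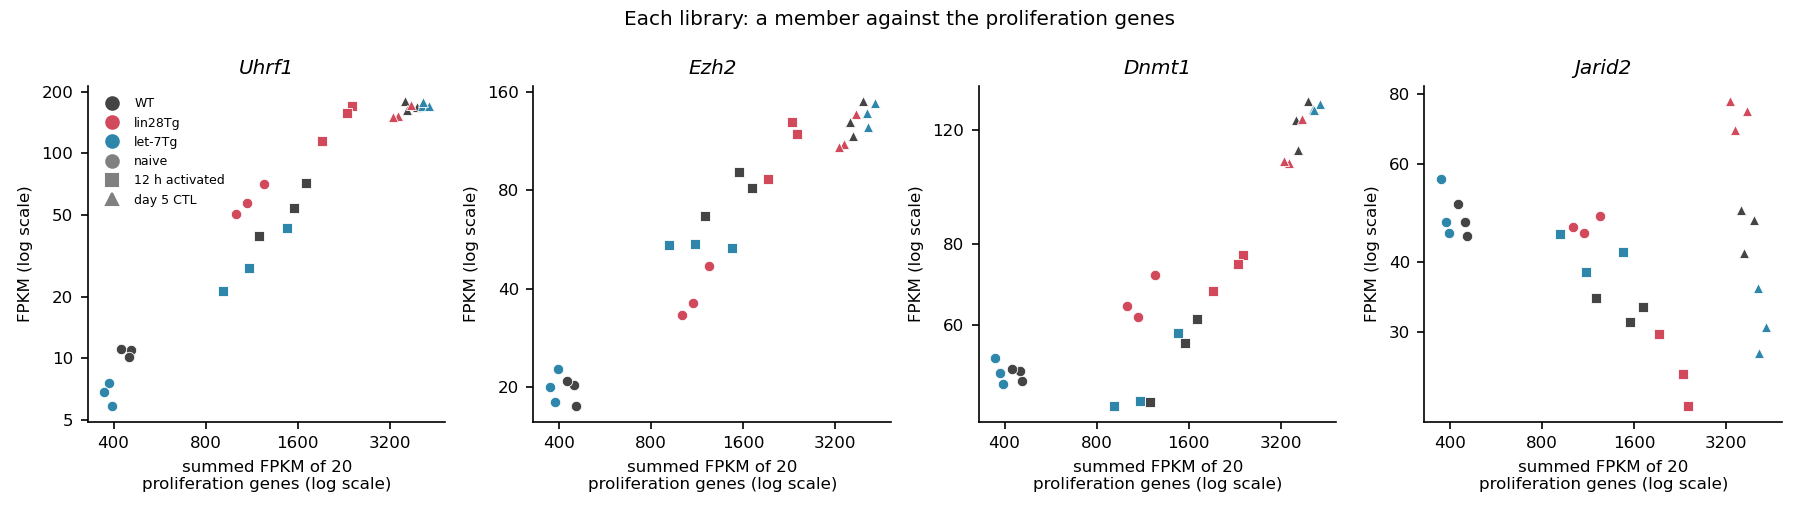
FPKM of Uhrf1, Ezh2, Dnmt1 and Jarid2 against the summed FPKM of 20 proliferation genes in each of the 27 libraries, both on log scales, with colors for the genotypes and circles, squares and triangles for naive, 12 h activated and day 5 CTL libraries. Uhrf1 goes from 5.81 to 179.8 FPKM along the sum, while Jarid2 in CTLs goes from 27.4 in let-7Tg to 77.6 in lin28Tg libraries, where the sums are 4066 to 4304 and 3289 to 3749.

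Across the 9 groups Uhrf1 had the widest range, from a mean of 6.73 FPKM in naive let-7Tg cells to 173 in let-7Tg CTLs, a ratio of 25.7. Ezh2 followed with a ratio of 6.99 and Kdm6b with 5.91, and Eed had the narrowest, 1.90. Dnmt3b and Tet2 were low throughout, with group means of 4.14 to 12.2 and 3.49 to 9.52 FPKM, and Uhrf1 was as low in naive let-7Tg cells. The order of the Jarid2 group means ran from 25.6 ± 3.82 (SD, n = 3) in lin28Tg cells at 12 h, through 31.3 ± 4.29 in let-7Tg CTLs, 33.0 ± 1.65 in WT and 41.6 ± 3.30 in let-7Tg cells at 12 h, 46.2 ± 4.18 in WT CTLs and 46.5 to 49.5 in the naive groups, to 73.6 ± 4.43 in lin28Tg CTLs. Libraries of neighbours in this order overlapped except between WT and let-7Tg cells at 12 h and below lin28Tg CTLs.

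The genes with the most similar profile over the 9 group means were named for each member, as a description across groups that share stages. For Uhrf1 they were the replication genes Cdc45 (Pearson r = 0.998) and Mcm10 (0.997), for Dnmt1 the DNA repair gene Fanci (0.999) and the kinetochore gene Dsn1 (0.999), and for Ezh2 the replication factor gene Rfc4 (0.994) and Mrpl18 (0.992). For Jarid2 the nearest profiles were less close, Samd8 with 0.914 and Enpp4 with 0.901. The others were Plk2 (0.995) and Nr6a1 (0.992) for Eed, Xpo1 (0.997) and Snf8 (0.995) for Suz12, Adrm1 (0.994) and Mrm3 (0.994) for Dnmt3a, Nup88 (0.99) and Psmc3ip (0.982) for Dnmt3b, Pcca (0.994) and 4930486L24Rik (0.988) for Tet2, and Fbxo11 (0.994) and Klc2 (0.993) for Kdm6b.

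Other genes of the same pathways were read from a list of 47, of which 46 were found and 44 or 45 tested per comparison. In naive cells 7 were higher and 14 lower in lin28Tg than in WT (background 33.9%). The largest rises were those of the nucleosome remodeler Hells and its partner Cdca7, which DNA methylation needs, and of the PRC2 accessory gene Phf19. Cdca7 had means of 58.4 FPKM in lin28Tg and 14.7 in WT (1.90 ± 0.09, adjusted p = 5.03e-06), Hells 25.3 and 6.22 (1.91 ± 0.16, adjusted p = 5.98e-05) and Phf19 7.92 and 1.76 (1.85 ± 0.17, adjusted p = 7.94e-05). Those that fell were led by Phf1, another PRC2 accessory gene, with 42.0 and 80.9 (-0.98 ± 0.11, adjusted p = 0.000266), and by Cbx7, a chromodomain subunit of PRC1, with 86.5 and 152 (-0.86 ± 0.10, adjusted p = 0.000386). PRC1 reads the PRC2 mark and ubiquitinates histone H2A, and of its 21 genes 1 was higher and 8 were lower in naive lin28Tg cells. Between lin28Tg and let-7Tg naive cells 6 of the 45 were higher and 17 lower (background 44.2%), with Cdca7, Hells and Phf19 again among the former and Phf1 and Cbx7 among the latter. In let-7Tg against WT 1 was called (background 0.74%), Cdca7, at 9.95 against 14.7 FPKM (-0.58 ± 0.09, adjusted p = 0.0254).

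At 12 h, 3 of 44 were called in lin28Tg against WT (background 8.33%), all higher. They were the PRC1 genes Cbx2, with 10.8 against 5.00 FPKM (1.02 ± 0.13, adjusted p = 0.002), and Pcgf2, with 17.1 against 10.5 (0.67 ± 0.13, adjusted p = 0.0113), and Phf19, with 6.37 against 1.97 (1.45 ± 0.20, adjusted p = 0.00306). In let-7Tg against WT 2 were called (background 2.97%), the methyl-DNA reader Zbtb38 higher with 12.2 against 5.79 (0.96 ± 0.17, adjusted p = 0.0273) and Cbx2 lower with 3.17 against 5.00 (-0.63 ± 0.13, adjusted p = 0.042). Between lin28Tg and let-7Tg cells 13 were higher and 8 lower (background 30.1%). Phf19 was higher in lin28Tg cells, at 6.37 against 1.16 FPKM (2.09 ± 0.20, adjusted p = 0.000131), as were Cbx2 at 10.8 against 3.17 (1.65 ± 0.13, adjusted p = 4.64e-05) and Uhrf2, a paralog of Uhrf1, at 43.1 against 29.9 (0.54 ± 0.08, adjusted p = 0.00149). Ezh1, the other catalytic subunit of PRC2, was lower at 19.6 against 36.5 (-0.85 ± 0.12, adjusted p = 0.000771), as were Cbx7 at 34.5 against 55.4 (-0.64 ± 0.10, adjusted p = 0.00155) and Zbtb38 at 5.65 against 12.2 (-1.01 ± 0.17, adjusted p = 0.00243).

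In CTLs 0 of 45 were called in lin28Tg (background 4.18%) or let-7Tg (background 0.945%) against WT with limma. At an unadjusted p under 0.05 there were 10 and 7, counts without a share of all genes at that threshold. Of the 45, 2 were higher and 8 lower in lin28Tg than in let-7Tg CTLs (background 21.3%). Mtf2, which like Jarid2 is an accessory subunit of PRC2, was higher at 61.3 against 38.9 FPKM (0.76 ± 0.15, adjusted p = 0.00716), as was the PRC1 gene Pcgf3 at 18.3 against 13.1 (0.57 ± 0.12, adjusted p = 0.00951). The genes that were lower included the PRC1 genes Phc3, with 47.5 against 103 (-0.99 ± 0.13, adjusted p = 0.00126), Phc1, with 7.69 against 15.2 (-0.84 ± 0.15, adjusted p = 0.00402), and Scmh1, with 4.34 against 10.3 (-1.05 ± 0.19, adjusted p = 0.00462).

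**Figure D4:**
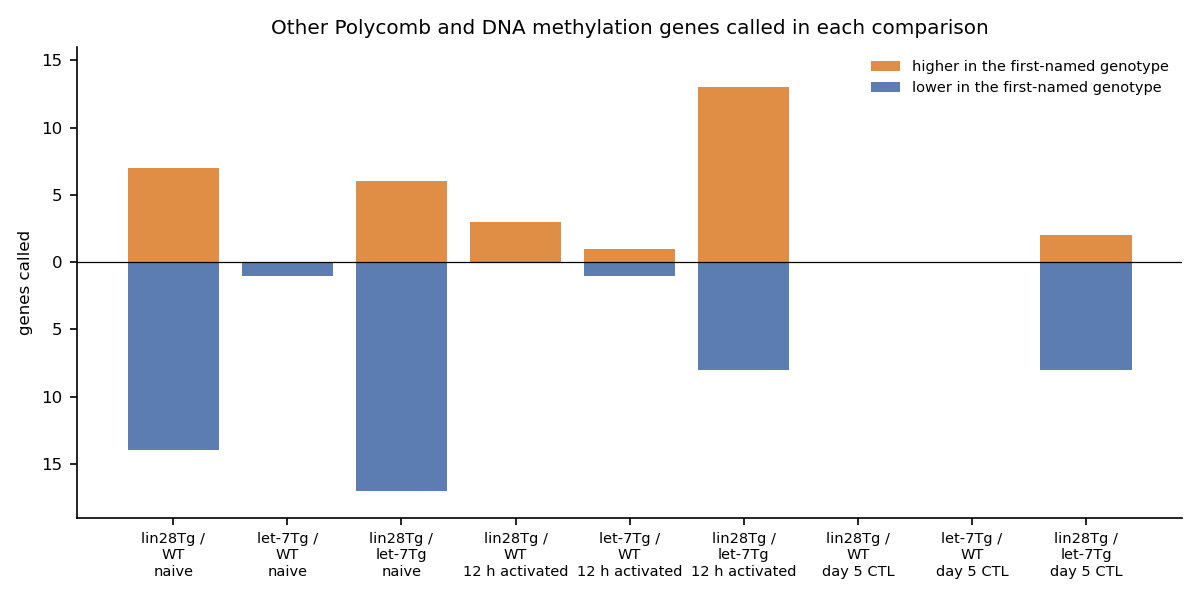
Number of genes called with adjusted p under 0.05 among the other Polycomb and DNA methylation genes tested (44 at 12 h, 45 otherwise) in each comparison of genotypes, with bars above 0 for genes higher and below 0 for genes lower in the genotype named first. At every stage more were called between lin28Tg and let-7Tg (23, 21 and 10) than between let-7Tg and WT (1, 2 and 0), as among all genes (44.2%, 30.1% and 21.3% against 0.74%, 2.97% and 0.945%).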

How the data were processed

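RNA-seq of 27 libraries was read from 1 table per stage. The authors aligned reads with TopHat2 2.0.9 and Bowtie2 2.0.6, counted them with HTSeq 0.6.1 (builds GRCm38 and mm10 in the submitters' processing notes) and deposited FPKM per gene and library, which corrects for gene length and library total but not for composition. Whether counting used strand is not given in the sources used here. On GENCODE M21 at most 6.82% of a member's exonic bases (Eed) lie opposite another gene's exons. The group means, fold changes, p-values and cluster numbers in the tables were not used. All 462839 FPKM values above 0 came out as whole reads, which gave the depths.

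The members and lists were chosen with earlier results of these data known. Genes with the equivalent of 10 reads in at least 3 libraries and 15 reads in all were tested with limma 3.58.1 (R 4.3.3, intensity trend) on log2 of FPKM plus 0.5, after scaling by trimmed means of log ratios (a fraction of 0.3 of ratios and 0.05 of levels trimmed). Genotypes were compared in a fit of the 9 libraries of a stage, and WT stages and changes between stages in a fit of all 27. P-values were adjusted by Benjamini-Hochberg at 0.05. FPKM printed for a library or group are unscaled. All members are named. Of the other pathway genes, at most 3 called genes per direction with libraries that did not overlap are named in each comparison, those with the smallest p. A gene that this rule names is not reported here. Fits were tested on simulated data. Replicates of a group differed by more than sampling noise, with a mean chi-square per gene of 4.40 to 58.1 over 27 pairs. Alternatives were another pseudocount, no filter, no scaling or median-of-ratios scaling, only the 6 libraries compared, leaving out each library, and replicate number as a block. Same-numbered libraries deviated together between all genotypes on day 5 (correlations 0.244 to 0.717) and between WT and let-7Tg at 12 h (0.242 to 0.551). Between naive WT and let-7Tg the correlations were 0.0601 to 0.471, not all above the level set for pairing, and the other pairs of genotypes in naive and 12 h cells had at least 1 below 0. Python 3.11.15, pandas 2.3.3, numpy 2.4.6 and matplotlib 3.10.9 were used.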

Additional observations from a re-analysis of the deposited data

Results flagged for a closer look

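The difference between lin28Tg and let-7Tg cells changed from 12 h to day 5 for 3 members, by a test of the change itself with limma over all 27 libraries. The changes were -1.17 for Ezh2 (adjusted p = 0.000277), -0.70 for Dnmt1 (adjusted p = 0.00254) and -2.36 for Uhrf1 (adjusted p = 7.64e-06). With each of the 12 libraries involved left out in turn they ranged from -1.35 to -0.97, from -0.86 to -0.59 and from -2.67 to -2.08, and each stayed below the threshold. The same change was called in 19 of 20 proliferation genes, all lower (background 20%). The part of proliferation in the changes of the 3 members was not tested. Stage, stimulus and any difference of sequencing run cannot be told apart in these values.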

How the results depend on the processing

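No result reversed its direction under any alternative that was run. The count of members called in let-7Tg against WT naive cells went from 1 to 0 without the filter, without scaling and with replicate number as a block. The block gave 0 where same-numbered naive WT and let-7Tg libraries had correlations of 0.471, 0.215 and 0.0601, so that pairing was partial. It added Dnmt3a in lin28Tg against WT naive cells and Eed in the change from 12 h to day 5, and changed no other call of a member. With single libraries left out the counts ranged from 3 to 5 in lin28Tg against WT naive cells, 0 to 0 in let-7Tg against WT naive cells, 0 to 2 in lin28Tg against WT at 12 h, 0 to 1 in lin28Tg against let-7Tg CTLs and 0 to 1 in the change of that difference from naive cells to 12 h. That change was also called in 1 member, Uhrf1, without the 12 h libraries numbered 2 of WT and let-7Tg, an alternative chosen after seeing the data because they stand apart in Kdm6b. All other counts stayed within 1.5 times. The call of Kdm6b in lin28Tg against WT naive cells was lost without the filter (adjusted p = 0.0799), without scaling (0.0692), with median-of-ratios scaling (0.0536) and with only the 6 libraries compared (0.0695, all with limma). Without scaling, the share of called genes that were higher went from 39.8% to 51% in let-7Tg against WT naive cells, from 50.2% to 35% in lin28Tg against let-7Tg CTLs and from 51.2% to 40.8% in WT at 12 h against naive.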
